A study of Mus musculus with 21 samples.

Results

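Inward rectifier (Kir) and tandem-pore (K2P) potassium channels were described in the whole brain transcriptome of SAMP8 mice given the peptide HsTX1[R14A] or vehicle. The set comprised 10 genes chosen by name, Kcnj3, Kcnj4, Kcnj6, Kcnj9, Kcnj10 and Kcnj16 of the Kir family and Kcnk1, Kcnk2, Kcnk3 and Kcnk9 of the K2P family. All 10 were present among the 16318 genes of the count table and all 10 passed the filter on low counts that left 16303 genes for testing.

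SAMP8 is an inbred senescence-accelerated line used as a model of sporadic Alzheimer's disease, and every mouse compared here was SAMP8. HsTX1[R14A], a scorpion-toxin analog that blocks the voltage-gated channel Kv1.3, was injected under the skin at 1 mg/kg on alternate days over 8 weeks, starting at 4 months of age, and brains were collected at 6 months. Phosphate-buffered saline (PBS) was given to 12 mice (6 female, 6 male) and HsTX1[R14A] to 9 mice (3 female, 6 male), with 1 library per mouse. The comparison asks how the channel genes of the brain differed after the Kv1.3 blocker, which was not designed against Kir or K2P channels.

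Kir channels pass potassium more readily into the cell than out of it near the resting potential, and they are gated by G proteins, by ATP or by lipids, depending on the subunit. Kcnj3, Kcnj6 and Kcnj9 encode subunits of the G protein-gated channels (GIRK1, GIRK2 and GIRK3), which open when the βγ dimer released by GABA-B, opioid, muscarinic or somatostatin receptors binds them and which then slow neuronal firing. Kcnj10 (Kir4.1) is the main astrocytic Kir channel and takes up potassium released by active neurons, alone or joined with Kcnj16 (Kir5.1). K2P channels carry background potassium current that sets the resting potential. Kcnk2 (TREK-1) responds to stretch, heat and lipids, Kcnk3 (TASK-1) and Kcnk9 (TASK-3) are closed by external acid and by Gq-coupled receptors, and Kcnk1 (TWIK-1) passes little current under most conditions.

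The genes lie on 7 chromosomes of the mouse genome GRCm38. Kcnj9 (ENSMUSG00000038026, chr1:172320501-172329318, minus strand) and Kcnj10 (ENSMUSG00000044708, chr1:172341210-172374085, plus strand) are neighbors that point away from each other, with start sites 11888 bases apart. Kcnk2 (ENSMUSG00000037624, chr1:189207930-189402273) is on the same chromosome. The others are Kcnj3 (ENSMUSG00000026824, chr2:55435970-55598145), Kcnk3 (ENSMUSG00000049265, chr5:30588170-30625271), Kcnk1 (ENSMUSG00000033998, chr8:125995170-126030685), Kcnj16 (ENSMUSG00000051497, chr11:110968033-111027968), Kcnk9 (ENSMUSG00000036760, chr15:72501089-72546340), Kcnj4 (ENSMUSG00000044216, chr15:79483714-79505241) and Kcnj6 (ENSMUSG00000043301, chr16:94748636-94997701). All 10 are annotated as protein coding. Their longest transcripts ran from 2152 bases for Kcnj4 to 12300 bases for Kcnk9, which is at the 99.0 percentile of all genes in the table.

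Promoter sequence was at hand in the RefSeq table for 8 of the 10 genes, and not for Kcnk3 and Kcnk9. The 250 bases before the start site are shown for Kcnj6 and Kcnj9, whose levels rose and fell together between mice, and for Kcnj10, the neighbor of Kcnj9. Sequences are from RefSeq, GRCm38.p6, on the strand of the gene, 5′ to 3′. They span chr16:94997697-94997946 (minus) for Kcnj6, chr1:172329323-172329572 (minus) for Kcnj9 and chr1:172340960-172341209 (plus) for Kcnj10. For Kcnj6, which has a second start site in the table, the window before the outer one is given. Capitals mark matches, on either strand, to the TATA box (TATAAA), the GC box (GGGCGG), the CCAAT box (CCAAT) and the core of the cAMP response element (TGACG).
Kcnj6: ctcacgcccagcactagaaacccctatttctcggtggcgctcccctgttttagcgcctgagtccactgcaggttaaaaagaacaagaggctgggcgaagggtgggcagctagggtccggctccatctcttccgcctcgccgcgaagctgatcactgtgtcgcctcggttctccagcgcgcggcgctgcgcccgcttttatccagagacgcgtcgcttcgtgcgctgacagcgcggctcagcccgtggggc
Kcnj9: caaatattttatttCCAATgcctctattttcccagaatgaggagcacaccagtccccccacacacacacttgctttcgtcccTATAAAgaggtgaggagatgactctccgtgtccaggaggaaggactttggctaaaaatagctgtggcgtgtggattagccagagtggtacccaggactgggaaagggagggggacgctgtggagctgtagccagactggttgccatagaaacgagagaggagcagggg
Kcnj10: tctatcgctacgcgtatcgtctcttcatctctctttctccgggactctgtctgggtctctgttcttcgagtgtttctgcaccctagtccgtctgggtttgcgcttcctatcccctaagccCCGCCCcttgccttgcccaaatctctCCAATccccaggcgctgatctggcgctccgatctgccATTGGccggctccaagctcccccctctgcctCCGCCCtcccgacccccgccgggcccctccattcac

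The Kcnj9 window held 1 TATA box and 1 CCAAT box, the Kcnj10 window 2 GC boxes and 2 CCAAT boxes, and the Kcnj6 window none of the 4 motifs. Over the 32841 RefSeq windows of this length, 12.4% held a TATA box, 32.7% a GC box, 33.9% a CCAAT box and 17.8% the cAMP element core. Guanine and cytosine made up 64.0% of the Kcnj6 window, 52.0% of the Kcnj9 window and 62.0% of the Kcnj10 window.

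Library totals ran from 14917174 to 47613792 counts. The tissue was whole brain, but the markers of single regions varied widely between mice. Gabra6, a GABA-A receptor subunit of cerebellar granule cells, was under 1 CPM (counts scaled to a common library size with TMM factors) in 16 of the 21 mice and reached 90.1 CPM in HsTX1[R14A] male 74. Slc6a3, the dopamine transporter, was under 3 CPM in 19 mice and reached 27.9 CPM in HsTX1[R14A] female 71 and 18.3 CPM in HsTX1[R14A] male 88. These 3 mice had a summed level of the 8 cerebellar or 4 midbrain dopamine markers more than 3 times the median of the 21 mice, and all 3 had been given HsTX1[R14A]. The cerebellar sum ran from 65.2 to 252 CPM in PBS and from 73.2 to 743 CPM in HsTX1[R14A] mice (0 of 8 markers called), and the dopamine sum from 4.45 to 23.2 and from 8.0 to 97.1 CPM (1 of 4 called higher). Over all 16303 genes tested, 15.5% were called higher and 16.1% lower. Only the cerebellar and dopamine lists were screened for mice above 3 times the median. The sum of 5 hypothalamic markers ran from 2.91 to 330 CPM in PBS and from 2.28 to 141 CPM in HsTX1[R14A] mice. For 5 choroid plexus markers it ran from 67.3 to 1120 and from 57.6 to 826 CPM. Wide spread was thus not limited to treated mice. Gabra6 and the Purkinje cell marker Pcp2 were each at 0 in at least 1 mouse. In bulk tissue, fewer cells of a type and less RNA per cell cannot be told apart. A further measure that differed between libraries was the length slope, the slope of log2 CPM in a library, less each gene's average over the 21 mice, on log2 transcript length over 16224 genes. PBS libraries averaged -0.076 ± 0.161 (SD, n = 12) and HsTX1[R14A] libraries 0.102 ± 0.119 (SD, n = 9), a difference of 0.194 adjusted for sex (two-sided exact permutation test within sex, p = 0.00504), and the groups overlapped.

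Levels of different genes were compared per length as RPKM (CPM divided by the longest transcript in kilobases) in the 12 PBS mice. The astrocyte channel Kcnj10 was the most abundant at 60.2 ± 15 RPKM (SD, n = 12), followed by Kcnk1 at 46.3 ± 5.97 and by Kcnj4 (Kir2.3, a strong rectifier of forebrain neurons) at 31.6 ± 7.49. Kcnj3, Kcnj9 and Kcnk2 lay close together at 21.7 ± 3.67, 21.2 ± 5.91 and 21.1 ± 2.57 RPKM. Kcnj16 was at 7.59 ± 1.10, Kcnk3 at 3.79 ± 0.923, Kcnj6 at 1.85 ± 0.873 and Kcnk9 at 0.142 ± 0.080 RPKM.

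**Figure D1:**
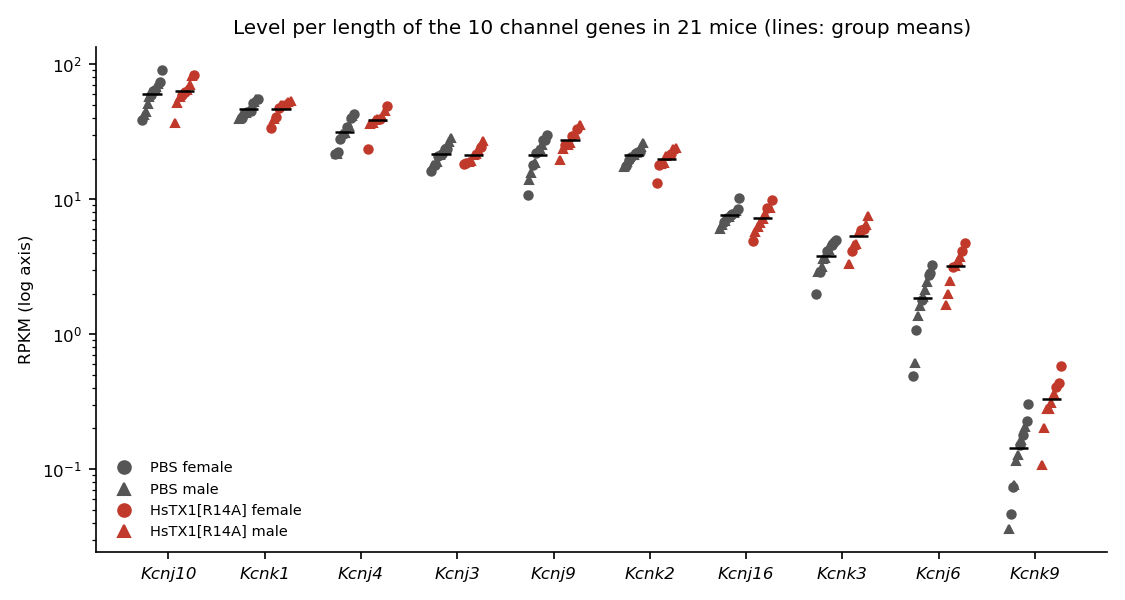
Level per length of the 10 channel genes (RPKM, log axis) in each of 12 PBS mice (gray) and 9 HsTX1[R14A] mice (red), circles for females and triangles for males, with lines at the group means. The genes are ordered by their PBS mean, from Kcnj10 at 60.2 RPKM to Kcnk9 at 0.142 RPKM.

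Of the 9 pairs of neighbors in this order, 7 differed (two-sided exact sign-flip test over the 12 PBS mice, Benjamini-Hochberg over the 9 pairs). The narrowest of these was Kcnj10 over Kcnk1, with a mean log2 difference of 0.35 ± 0.48 (SD) and Kcnj10 higher in 9 of 12 mice (exact test, adjusted p = 0.0383). The widest was Kcnj6 over Kcnk9, at 3.63 ± 0.44 in log2 and in the same direction in 12 of 12 mice (exact test, adjusted p = 0.000879). Kcnj3 over Kcnj9 and Kcnj9 over Kcnk2 did not pass, with mean log2 differences of 0.07 ± 0.38 (exact test, adjusted p = 0.582) and -0.04 ± 0.56 (exact test, adjusted p = 0.808). In the HsTX1[R14A] mice, Kcnj9 (27.5 ± 4.97 RPKM, n = 9) stood before Kcnj3 (21.4 ± 3.01), and the rest of the order was as in the PBS mice. The GIRK subunits thus spanned a wide range, with Kcnj3 and Kcnj9 well above Kcnj6. The same held for the TASK genes, with Kcnk3 well above Kcnk9.

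The spread between mice also differed by gene. Within the PBS group the coefficient of variation was 56.2% for Kcnk9 and 47.1% for Kcnj6. It was 27.8% for Kcnj9, 24.9% for Kcnj10, 24.3% for Kcnk3 and 23.7% for Kcnj4. Kcnj3, Kcnj16, Kcnk1 and Kcnk2 varied less, between 12.2% and 16.9%. Kcnk9 was counted 8 to 99 times in the PBS libraries and 26 to 268 times in the HsTX1[R14A] libraries, and Kcnj6 25 to 357 and 118 to 569 times, which makes Kcnk9 the member with the largest counting error.

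HsTX1[R14A] mice had higher levels of Kcnk9, Kcnj6 and Kcnk3 than PBS mice, and no member was called lower. These were 3 of 10 genes called by edgeR's quasi-likelihood test with sex in the model at an FDR of 0.05, beside 31.6% of all 16303 genes (15.5% higher, 16.1% lower). The median log2 fold change was 0.19 over the members and -0.01 over all genes. Kcnk9 rose 2.39-fold, Kcnj6 1.77-fold and Kcnk3 1.42-fold. The share of members called was therefore near that of all genes.

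**Figure D2:**
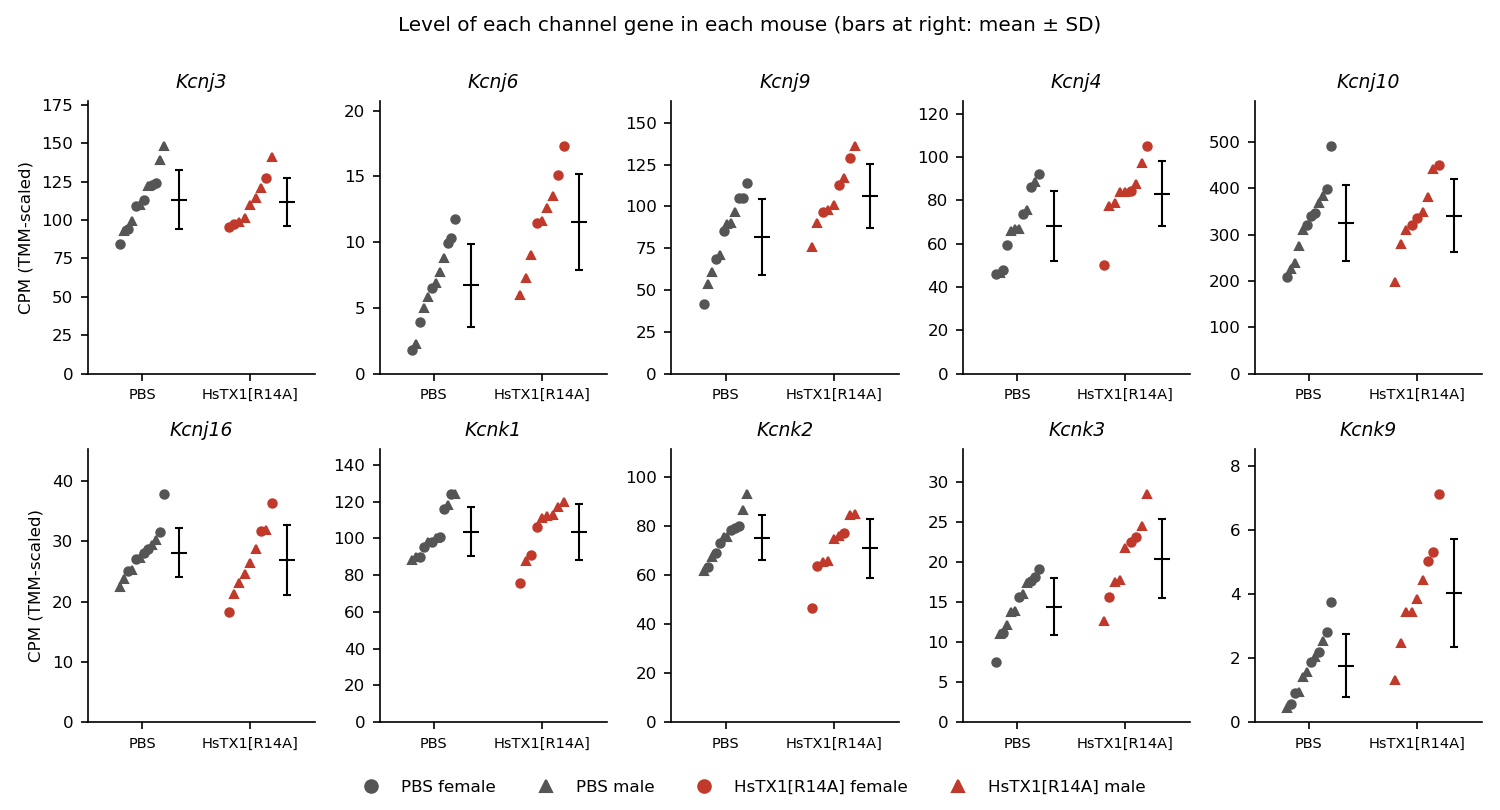
Level of each channel gene in each mouse (TMM-scaled CPM, linear axes from 0) for 12 PBS mice (gray) and 9 HsTX1[R14A] mice (red), circles for females and triangles for males, with the mean ± SD at the right of each group. The groups overlap for every gene, and 5 of 9 HsTX1[R14A] mice lie above the highest PBS mouse for Kcnk9 and for Kcnk3.

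Among the G protein-gated subunits, Kcnj6 (GIRK2) was between 1.77 and 11.8 CPM in the PBS mice with a median of 6.69, and between 5.97 and 17.3 CPM in the HsTX1[R14A] mice with a median of 11.6. The lowest value was that of PBS female 103 and the highest that of HsTX1[R14A] female 98, and 4 of 9 HsTX1[R14A] mice lay above every PBS mouse. The log2 fold change was 0.82 (SE 0.26, adjusted p = 0.0263), and without HsTX1[R14A] female 98 it was 0.76 with an adjusted p of 0.0546. Kcnj9 (GIRK3) was between 41.4 and 114 CPM (median 87.5) in PBS mice and between 75.7 and 136 CPM (median 101) in HsTX1[R14A] mice.

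For Kcnj9, 8 of the 9 treated mice exceeded the PBS median and 3 exceeded the highest PBS mouse. Its log2 fold change was 0.40 (SE 0.15, adjusted p = 0.0519), just short of the threshold. It passed with DESeq2 (adjusted p = 0.0322), limma/voom (0.0464; 0.0321 with quality weights), RLE scaling (0.0467) and the filter of at least 10 counts in every mouse (0.0479). It did not pass with no sex term (0.37, adjusted p = 0.0748), the form of the library name as a term (0.32, 0.121), 1 surrogate variable, an estimated hidden factor, as a term (0.17, 0.308) or the trend on length and GC content removed (0.13, 0.392), and the last 2 lowered the fold change by more than 1.5 times. In the edgeR test as first given, it passed when any one of 8 mice was left out (PBS females 84, 85, 103 and 104, PBS males 82, 101 and 102, or HsTX1[R14A] male 93), with an adjusted p of 0.0303 at the lowest. Kcnj3 (GIRK1), the subunit that most neuronal GIRK channels contain, was between 84.2 and 148 CPM (median 112) in PBS mice and between 95.2 and 141 CPM (median 110) in HsTX1[R14A] mice. Its log2 fold change was -0.04 (SE 0.10, adjusted p = 0.773), and the PBS range enclosed that of the HsTX1[R14A] mice. Neuron markers, measured beside these neuronal genes, summed to 5230 to 7620 CPM in PBS and 5680 to 8240 CPM in HsTX1[R14A] mice. Of these 7 markers 1 was called higher, or 14.3% beside 15.5% of all genes. The part of the neuron markers in the GIRK values was not tested.

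Kcnj4 was at 46.2 to 92.3 CPM (median 66.7) in PBS mice and at 50.3 to 105 CPM (median 84.0) in HsTX1[R14A] mice. The log2 fold change was 0.28 (SE 0.14, adjusted p = 0.117). The lowest HsTX1[R14A] value belonged to female 71, and without that mouse the fold change was 0.36 with an adjusted p of 0.0495.

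The astrocytic pair was not called. Kcnj10 ranged from 208 to 491 CPM (median 330) in PBS mice and from 197 to 451 CPM (median 337) in HsTX1[R14A] mice, with a log2 fold change of 0.10 (SE 0.15, adjusted p = 0.604). Kcnj16 ranged from 22.4 to 37.8 CPM (median 27.7) and from 18.2 to 36.3 CPM (median 26.4), with a log2 fold change of -0.03 (SE 0.11, adjusted p = 0.837). For both genes no HsTX1[R14A] mouse lay above the PBS range. Astrocyte markers, measured beside them, had a summed level of 1430 to 2020 CPM in PBS mice and 1200 to 1710 CPM in HsTX1[R14A] mice. Of the 8 markers 2 were called higher and 3 lower, or 25.0% and 37.5%, beside 15.5% and 16.1% of all genes. Oligodendrocyte markers, from another cell type that expresses Kcnj10, summed to 4370 to 6760 CPM and 3340 to 4890 CPM. Of these 8 markers 5 were called lower, or 62.5% beside 16.1% of all genes. The part of these markers in the values of Kcnj10 and Kcnj16 was not tested.

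Among the K2P genes, Kcnk9 (TASK-3) was between 0.439 and 3.76 CPM with a median of 1.72 in PBS mice, and between 1.32 and 7.11 CPM with a median of 3.83 in HsTX1[R14A] mice. The 3 HsTX1[R14A] females were at 7.11, 5.30 and 5.03 CPM, above every other mouse of the study, and the 6 HsTX1[R14A] males were between 1.32 and 4.44 CPM. The log2 fold change was 1.26 (SE 0.29, adjusted p = 0.0151), and 8 of the 9 treated mice exceeded the PBS median. Kcnk9 was called with each mouse left out in turn (log2 fold change 1.16 to 1.39, adjusted p 0.00688 to 0.0337).

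Kcnk3 (TASK-1) was between 7.52 and 19.1 CPM with a median of 14.8 in PBS mice, and between 12.6 and 28.5 CPM with a median of 21.8 in HsTX1[R14A] mice. The highest value was that of HsTX1[R14A] male 74, the mouse with the high cerebellar markers. The log2 fold change was 0.51 (SE 0.16, adjusted p = 0.0253), with 8 of the 9 treated mice over the PBS median, and it was 0.48 with an adjusted p of 0.0511 without PBS male 90. Kcnk1 was at 88.2 to 124 CPM (median 99.3) and 75.7 to 120 CPM (median 111), with a log2 fold change of -0.02 (SE 0.09, adjusted p = 0.865).

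Kcnk2 was at 61.8 to 93.1 CPM (median 75.7) in PBS mice and 46.7 to 85.1 CPM (median 75.0) in HsTX1[R14A] mice, and its log2 fold change was -0.11 (SE 0.09, adjusted p = 0.348). The lowest value of both Kcnk1 and Kcnk2 was that of HsTX1[R14A] female 71, one of the mice with high dopamine neuron markers. The non-members that overlap these genes on the opposite strand and stand in the table are Gm26794 (Kcnj3), A430027H14Rik (Kcnk2) and Gm9899 (Kcnk3), and Pdcd5-ps lies within Kcnk2 on the same strand. Whether the counting used strand is not given in the sources used here, so reads shared with them cannot be told apart.

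The names of the libraries had 2 forms, beginning with SAMP8 for 10 PBS and 5 HsTX1[R14A] mice and with SAMP for 2 PBS and 4 HsTX1[R14A] mice. What the forms stand for is not stated. Within the SAMP8 form the log2 fold changes were 1.5 for Kcnk9 (adjusted p = 0.0563), 0.88 for Kcnj6 (0.0938) and 0.53 for Kcnk3 (0.0991). Within the SAMP form they were 0.52, 0.54 and 0.35, each with an adjusted p of 0.855. No member passed within either form alone, and edgeR called 0 of all genes there, with 5797 and 532 genes at an unadjusted p under 0.05. With the name form as a further term over all 21 mice, Kcnk9 was called (1.22, adjusted p = 0.0388) and Kcnj6 (0.76, 0.0562) and Kcnk3 (0.48, 0.0549) were not. With 1 surrogate variable in place of the name form, the fold changes were smaller, 0.81 for Kcnk9 (adjusted p = 0.0168), 0.38 for Kcnj6 (0.0541) and 0.23 for Kcnk3 (0.088).

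The calls were also read without the 3 mice that stood apart on region markers, all of them treated, which left 18 mice. Without them the log2 fold changes were 1.03 for Kcnk9 (adjusted p = 0.114), 0.71 for Kcnj6 (0.139) and 0.37 for Kcnk3 (0.160), in the direction seen with all mice, and 0 members and 0 of all genes were called by edgeR, with 5018 genes at an unadjusted p under 0.05. The Kcnj9 fold change was 0.40 and that of Kcnj4 also 0.40 without them, while that of Kcnj10 turned from 0.10 to -0.06. The treated group was smaller in this fit. The SE was 0.33 for Kcnk9, 0.31 for Kcnj6 and 0.17 for Kcnk3, beside 0.29, 0.26 and 0.16 with all mice. The part of the region markers in the loss of calls was not tested.

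**Figure D3:**
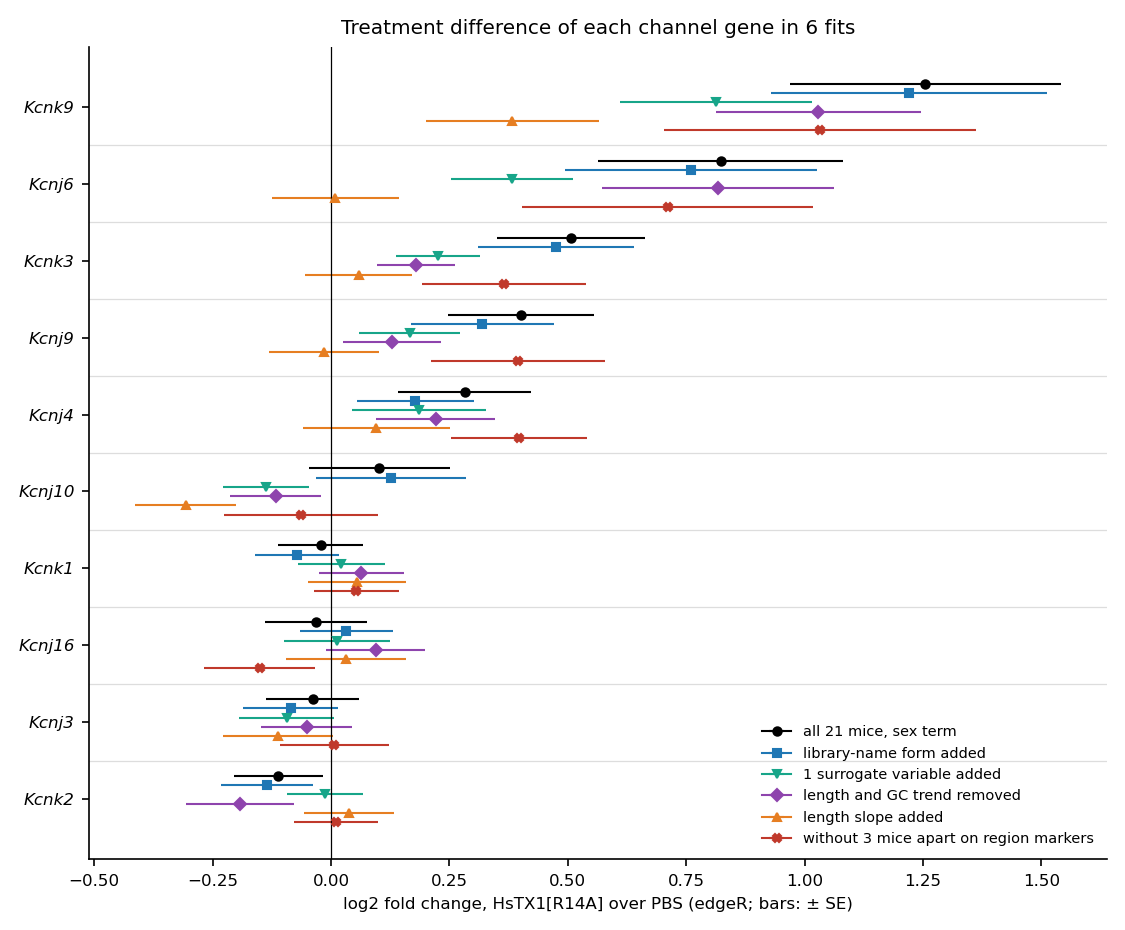
Log2 fold change between HsTX1[R14A] and PBS mice (x axis, positive where HsTX1[R14A] is higher, edgeR, bars ± SE) for each channel gene (y axis) in 6 fits, marked by color and symbol. Kcnk9 lies to the right of 0 in all 6 fits, from 0.38 with the length slope added to 1.26 with all 21 mice and a sex term, and Kcnj6 moves from 0.82 to 0.01 when the length slope is added.

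The called genes followed the length slope of the libraries. In transcript length Kcnk9 was at the 99.0 percentile of all genes, but Kcnj6 was at 56.7 and Kcnk3 at 60.2. Of the members not called, Kcnj10 was at 82.2, Kcnj3 at 80.5, Kcnj9 at 61.0 and Kcnj16 at 58.3. Kcnk2 was at 55.8, Kcnk1 at 27.9 and Kcnj4 at 26.2. Over the 12 PBS mice, which all received vehicle, Pearson's r between log2 CPM and the length slope was 0.950 for Kcnj6 (permutation p = 4e-05, adjusted 0.0004; Spearman's rho 0.909, p = 0.00013, adjusted 0.0013). It was 0.945 for Kcnk9 (permutation p = 2e-05, adjusted 0.0004; rho 0.916, p = 6e-05, adjusted 0.0012) and 0.894 for Kcnk3 (permutation p = 8e-05, adjusted 0.0004; rho 0.860, p = 0.00064, adjusted 0.00427). Kcnj10 was at 0.882 (permutation p = 8e-05, adjusted 0.0004; rho 0.818, p = 0.00187, adjusted 0.00748) and Kcnj9 at 0.845 (permutation p = 0.00075, adjusted 0.0025; rho 0.776, p = 0.00431, adjusted 0.0144).

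These 5 relations were among 20 computed, 10 genes in each treatment group, and none of the other 5 genes had an adjusted p under 0.05 in PBS mice. The nearest was Kcnk2, at -0.615 in PBS mice (permutation p = 0.0335, adjusted 0.067; rho -0.552, p = 0.067, adjusted 0.134). In HsTX1[R14A] mice Kcnk2 was at -0.596 (exact permutation p = 0.0921, adjusted 0.154; rho -0.733, p = 0.0311, adjusted 0.0778). Without the 2 PBS mice whose slope lay farthest from the median, r was 0.835 for Kcnj6, 0.889 for Kcnk9, 0.785 for Kcnk3, 0.805 for Kcnj10 and 0.571 for Kcnj9. Within the 10 PBS mice of the SAMP8 form it was between 0.830 and 0.952 for these 5 genes. In the 9 HsTX1[R14A] mice r was 0.940 for Kcnj6 (exact permutation p = 0.000196, adjusted 0.000783; rho 0.917, p = 0.00131, adjusted 0.00656), 0.873 for Kcnk9 (exact p = 0.00352, adjusted 0.0101; rho 0.733, p = 0.0311, adjusted 0.0778) and 0.691 for Kcnk3 (exact p = 0.0373, adjusted 0.0678; rho 0.583, p = 0.108, adjusted 0.154). Kcnj10 was at 0.817 (exact permutation p = 0.0095, adjusted 0.0237; rho 0.617, p = 0.0857, adjusted 0.143) and Kcnj9 at 0.764 (exact permutation p = 0.0156, adjusted 0.0346; rho 0.667, p = 0.0589, adjusted 0.131). Without the 2 mice of most distant slope, r was 0.855 for Kcnj6, 0.677 for Kcnk9, 0.512 for Kcnj9, 0.464 for Kcnj10 and 0.220 for Kcnk3, so that of Kcnk3 rests on them. The 5 and 4 HsTX1[R14A] mice of the name forms are too few for a value within a form.

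**Figure D4:**
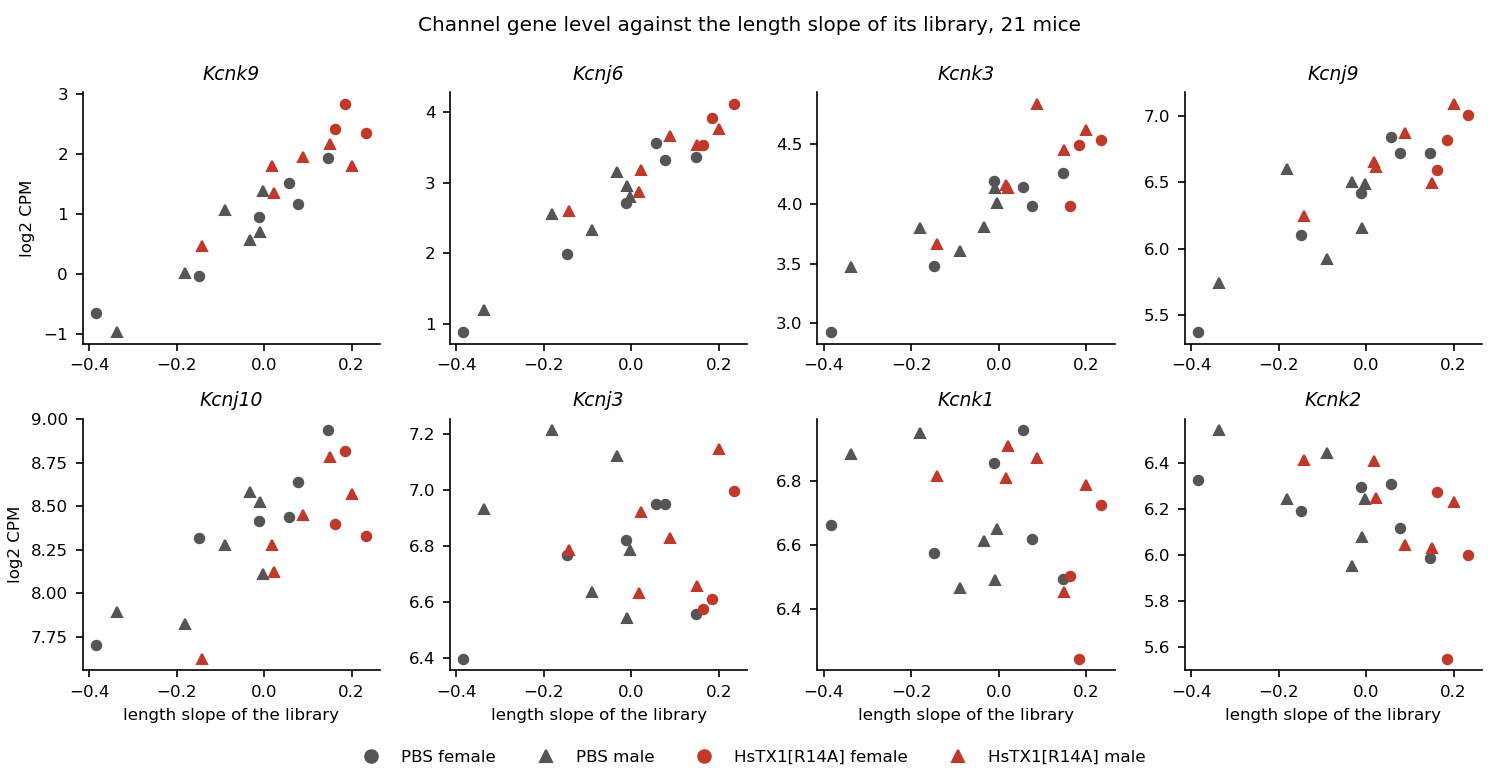
Log2 CPM of 8 channel genes (y axes) against the length slope of the library (x axes, change in centered log2 CPM per doubling of transcript length) for 12 PBS mice (gray) and 9 HsTX1[R14A] mice (red), circles for females and triangles for males. Kcnk9 and Kcnj6 climb with the slope in both groups (r of 0.945 and 0.950 in PBS mice), whereas Kcnj3 shows no such course (r of 0.0821 in PBS mice).

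With the length slope as a covariate, the log2 fold change was 0.38 for Kcnk9 (adjusted p = 0.432), 0.01 for Kcnj6 (0.986), 0.06 for Kcnk3 (0.870) and -0.02 for Kcnj9 (0.972). No gene of the table was called by edgeR in that fit (1865 at an unadjusted p under 0.05). With each library's trend on length and GC content removed before the test, Kcnk9 (1.03, adjusted p = 0.0120) and Kcnj6 (0.82, 0.0303) were called, and Kcnk3 was not (0.18, 0.122). Slope and treatment moved together in these libraries, and their shares in the differences cannot be told apart.

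Channels of the G protein-gated and TASK classes are built from partner subunits, and the ratio of partners within a library does not depend on its scaling. The ratios restate the fold changes of the single genes given above, so their tests are not separate evidence. The part of the length slope in the ratios was not tested. With the slope as a covariate, the log2 fold changes of the single genes were -0.11 for Kcnj3, 0.01 for Kcnj6 and -0.02 for Kcnj9. They were -0.31 for Kcnj10, 0.03 for Kcnj16, 0.06 for Kcnk3 and 0.38 for Kcnk9. The 5 pairs below were chosen from known partnership after the values had been seen, and tested by an exact permutation of treatment within sex (two-sided, Benjamini-Hochberg over the 5 pairs). The log2 ratio of Kcnj6 to Kcnj3 per length averaged -3.73 ± 0.82 (SD, n = 12) after PBS and -2.81 ± 0.49 (n = 9) after HsTX1[R14A], 0.99 higher adjusted for sex (exact p = 0.00311, adjusted 0.00518). Kcnj9 to Kcnj3 was -0.07 ± 0.38 and 0.35 ± 0.22, which was 0.47 higher (exact p = 0.00276, adjusted 0.00518).

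Relative to GIRK1, the messages of GIRK2 and GIRK3 were thus both higher after HsTX1[R14A], each above the PBS median ratio in 8 of 9 mice. Between them, Kcnj9 to Kcnj6 was 0.52 lower (3.66 ± 0.48 and 3.16 ± 0.33; exact p = 0.0113, adjusted 0.0141). The ratio of Kcnk9 to Kcnk3 was -4.94 ± 0.67 and -4.13 ± 0.57, 0.91 higher (exact p = 0.00206, adjusted 0.00518), and all 9 treated mice exceeded the PBS median. Kcnj16 to Kcnj10 was -2.96 ± 0.40 and -3.11 ± 0.37, a difference of -0.16 that did not pass (exact p = 0.392).

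Within the SAMP8 form the 4 differences that passed were 1.12 (Kcnj6 to Kcnj3), 0.48 (Kcnj9 to Kcnj3), -0.63 (Kcnj9 to Kcnj6) and 1.03 (Kcnk9 to Kcnk3). Within the SAMP form, with 2 PBS mice, they were 0.25, 0.12, -0.13 and 0.10. Without the 3 mice that stood apart on region markers they were 0.75, 0.37, -0.38 and 0.74. The values by form and without the 3 mice are plain differences of group means, with no sex term and no test. The direction was the same in each case, and the values of the SAMP form were the smallest.

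**Figure D5:**
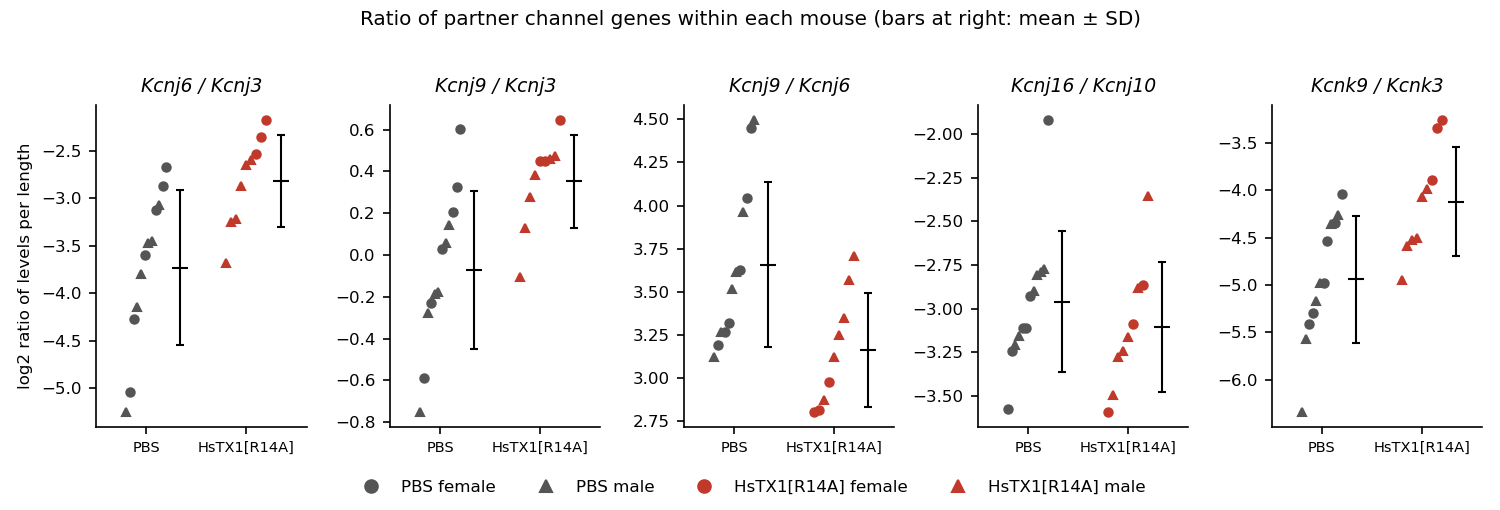
Log2 ratio of partner genes per length (y axes) in each of 12 PBS mice (gray) and 9 HsTX1[R14A] mice (red), circles for females and triangles for males, with the mean ± SD at the right of each group. For Kcnk9 / Kcnk3 all 9 HsTX1[R14A] mice lie above the PBS median, and for Kcnj16 / Kcnj10 the means are -2.96 and -3.11.

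Partners also varied together between mice to different degrees. In the PBS mice r between log2 CPM of Kcnj6 and Kcnj9 was 0.924 (n = 12, permutation p = 4e-05, adjusted 0.0004 over 10 relations; rho 0.902, p = 0.00012, adjusted 0.0012) with 0.794 without the 2 mice of most distant Kcnj6 and 0.911 in the 10 mice of the SAMP8 form. Between Kcnk3 and Kcnk9 it was 0.809 (permutation p = 0.00122, adjusted 0.0061; rho 0.811, p = 0.00216, adjusted 0.0108) with 0.693 without 2 mice and 0.787 in the SAMP8 form. Kcnj3 with Kcnj6 was at 0.310 (permutation p = 0.325, adjusted 0.406; rho 0.287, p = 0.364, adjusted 0.441; 0.0132 without 2 mice). Kcnj10 with Kcnj16 was at 0.0760 (permutation p = 0.817, adjusted 0.817; rho 0.245, p = 0.441, adjusted 0.441), but at 0.795 without the 2 mice of most distant Kcnj10, so the value over 12 mice rests on those 2. Kcnj3 with Kcnj9 was at 0.529 (permutation p = 0.0788, adjusted 0.189; rho 0.510, p = 0.0942, adjusted 0.236; 0.213 without 2 mice).

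In the 9 HsTX1[R14A] mice r was 0.793 for Kcnj6 with Kcnj9 (exact permutation p = 0.0108, adjusted 0.0362; rho 0.750, p = 0.0255, adjusted 0.085; 0.699 without 2 mice). Kcnk3 with Kcnk9 did not pass there, at 0.588 (exact permutation p = 0.0944, adjusted 0.189; rho 0.333, p = 0.385, adjusted 0.441; 0.395 without 2 mice). The remaining 3 pairs had r between 0.259 and 0.564, with adjusted p of 0.191 or more by exact permutation. Kcnj6, Kcnj9, Kcnk3 and Kcnk9 all followed the length slope, so these relations are not independent of it.

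No member was called for sex in the edgeR fit with treatment as a term. At an FDR of 0.05, 0 of the 10 members were called between females and males by edgeR, limma/voom and DESeq2. Over all genes, edgeR called 9 (0.0552% of those tested, 0.0245% higher and 0.0307% lower in females), with 1765 genes at an unadjusted p under 0.05. Kcnk9 had the largest estimate, 0.65 in log2 higher in females (SE 0.29, unadjusted p = 0.0353, adjusted p = 0.446), and was called with limma/voom and sample quality weights. The mean was 2.02 CPM in PBS females and 1.49 CPM in PBS males.

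The treatment by sex interaction was called for 0 members and 0 genes (0% of those tested, with 270 genes at an unadjusted p under 0.05 in edgeR, 250 in limma/voom and 302 in DESeq2). The interaction estimates ran from -0.30 (Kcnk1, SE 0.17, adjusted p = 1.0) to 0.40 (Kcnk9, SE 0.60, adjusted p = 1.0). In the fits within one sex, Kcnk9 was 1.49 higher in log2 in females (SE 0.43, adjusted p = 0.245) and 1.09 in males (SE 0.36, adjusted p = 0.14), Kcnj6 0.97 and 0.73, and Kcnk3 0.45 and 0.55. No gene was called within either sex by edgeR (0% of those tested), with 3318 genes at an unadjusted p under 0.05 in females and 4459 in males, so none of the 3 members passed in a single sex, and their estimates were positive in both.

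The rest of the 2 families was read beside the members. Kcnj1, Kcnj15, Kcnk7, Kcnk16 and Kcnk18 were not in the table. Of the 14 other Kir and K2P genes tested, 3 were called higher and 0 lower, beside 15.5% of all genes called higher and 16.1% lower. Kcnk12 (THIK-2) had a log2 fold change of 0.76 (SE 0.17, adjusted p = 0.0151), from 3.5 ± 1.07 to 5.79 ± 1.29 CPM (SD), and all 9 treated mice exceeded the PBS median. Kcnk10 (TREK-2) was at 0.51 (SE 0.19, adjusted p = 0.0452) and Kcnj12 (Kir2.2) at 0.39 (SE 0.13, adjusted p = 0.0342).

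Kcnj11 (0.34, adjusted p = 0.0579), which forms the ATP-sensitive channel, Kcnj14 (-0.23, 0.176) and Kcnk15 (0.84, 0.146) did not pass. Of the sulfonylurea receptors that complete ATP-sensitive channels, Abcc9 was called (0.52, adjusted p = 0.0493) and Abcc8 was just short of the threshold (0.75, 0.0506). The median log2 fold change was -0.06 over the 7 Kir and 0.21 over the 7 K2P genes.

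Genes that work with the GIRK channels were described from lists, which were chosen with earlier results of these data known. The shares called in these lists are therefore descriptions and not independent evidence. Of 11 receptors that couple to them, 6 were called higher and 0 lower, or 54.5% beside the 15.5% of all genes called higher, with a median log2 fold change of 0.26 beside -0.01. The μ opioid receptor Oprm1 was at 1.08 (SE 0.27, adjusted p = 0.0169; 1.28 ± 0.589 CPM in PBS and 2.47 ± 1.30 CPM in HsTX1[R14A] mice), the somatostatin receptor Sstr2 at 0.39 (SE 0.12, adjusted p = 0.0221) and the muscarinic receptor Chrm4 at 0.52 (SE 0.18, adjusted p = 0.0342). The others called were Gabbr1 (0.22, adjusted p = 0.0378) and Gabbr2 (0.66, 0.0347), the subunits of the GABA-B receptor, and Grm2 (0.84, 0.0414).

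Of 13 G protein βγ subunits and regulators, 2 were called higher and 0 lower, or 15.4% beside the 15.5% of all genes called higher. These were Gpr158 (0.42, SE 0.11, adjusted p = 0.0188), a receptor that binds RGS7 complexes, and Snx27 (0.16, SE 0.06, adjusted p = 0.0409), a sorting protein of GIRK channels. Gng4 was at 0.38 (adjusted p = 0.171). The βγ genes themselves were not called, and the list's median was 0.02.

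Of 12 genes of the perivascular and potassium-buffering machinery around Kir4.1, 2 were called higher and 1 lower (median 0.11), or 25.0% called beside 31.6% of all genes. Dag1, the dystroglycan that anchors channels at astrocyte endfeet, was at 0.63 (SE 0.17, adjusted p = 0.0188) and Atp1b2, a glial sodium pump subunit, at 0.80 (SE 0.28, adjusted p = 0.0393). Aqp4, the water channel of the endfeet, was at -0.30 (SE 0.11, adjusted p = 0.0477), and 0 of the 9 treated mice exceeded the PBS median. Of the Gq pathway that closes TASK channels, the muscarinic receptor Chrm1 was called higher (0.61, SE 0.16, adjusted p = 0.0186), and Gnaq, the Gq subunit itself, was at 0.19 (adjusted p = 0.0734). As with the members, none of these genes was called with the length slope as a covariate.

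The genes most like each member in pattern were sought by Pearson's r of log2 CPM, centered within treatment and sex, over 21 mice among genes that averaged 3 or more in log2 CPM (10461 or 10462 genes). For Kcnk9 these were Cds2 (r = 0.985), Usp22 (0.977) and Atp13a2 (0.975), for Kcnj6 Tbc1d13 (0.974), Lifr (0.970) and Tmem245 (0.970), and for Kcnj9 Luzp1 (0.985), Mical2 (0.976) and Rtn4r (0.974). For Kcnk3 they were Kcnc1 (0.945), a Kv3 channel, Dhx16 (0.942) and B930041F14Rik (0.932), and for Kcnj10 Sema6d (0.959), Micall1 (0.957) and Cachd1 (0.954).

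The 5 genes whose relation to the length slope passed in neither group had lower best values. They were Cacng2 (0.891), Pak7 (0.883) and Hecw1 (0.875) for Kcnj3, Kcnip2 (0.895), Dpf1 (0.891) and Me3 (0.890) for Kcnj4, and Smo (0.893), Pcdh19 (0.885) and Npy2r (0.860) for Kcnj16. For Kcnk1 they were Stx6 (0.910), Pank2 (0.903) and Igfbp6 (0.901), and for Kcnk2 Arpp21 (0.898), Adra2c (0.886) and Ppp1r7 (0.885). These values describe likeness over the same 21 libraries, which share the spread in length slope, and carry no test.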

How the data were processed

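RNA of 21 whole brains was sequenced with 1 library per mouse, so p-values measure the spread between mice. The values used are the estimated counts deposited by the authors for 16318 genes, from STAR alignments to GRCm38 and Salmon, without normalization. The library kit differs between the sample descriptions and the methods. The authors' log2 fold changes, p-values and FDR in the table and 53 other per-sample columns (16 of counts, 37 of CPM) were not used. Estimated counts were rounded before testing, and 90.496% were already whole to within 0.01. The 48 pairs of mice of 1 group had a mean chi-square per gene of 7.58 to 288, so none was the same library.

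Genes passing filterByExpr within treatment and sex entered edgeR 4.0.16 in R 4.3.3 with TMM factors (glmQLFit, glmQLFTest; sex and treatment as terms; Benjamini-Hochberg over 16303 genes, FDR at most 0.05). The procedure was tested on simulated data. Log2 CPM carries a prior count of 2. RPKM uses the longest transcript in GENCODE for GRCm38, and its tests a pseudocount of 0.01. At 14917174 counts and more, all members but Kcnk9 had at least 10 counts in every mouse. Correlations over 12 mice used 100000 permutations, and exact tests within sex 77616 labelings.

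Members, gene lists and tests were chosen with earlier results of these data known. Named are all members, the 3 genes of smallest p in each channel or partner list (with other called genes of the receptor list, named after their values were seen) and the 3 nearest genes in pattern. A result of the Gq list is not reported here. Partner ratios and the relations to the length slope were added after the data had been seen, as was leaving out 3 mice that stand apart on region markers. Alternatives were limma/voom 3.58.1, DESeq2 1.42.0, RLE scaling, 2 other filters, no sex term, name form as a term, quality weights, 1 surrogate variable (sva 3.50.0), removal of length and GC trends (loess span 0.5), length slope as a term, a single name form, and omission of 1 mouse at a time.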

Additional observations from a re-analysis of the deposited data

Results flagged for a closer look

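The Kcnk1 level of HsTX1[R14A] male 88 was 87.5 CPM, below the other 5 males of that group, of which the nearest was at 111 CPM and the highest at 120 CPM. The gap to the nearest mouse was 0.704 of the range of the group, above Dixon's 95% critical value of 0.625 for 6 mice. This was 1 of 30 sets of gene, treatment and sex examined, and chance flags about 1 in 20. The same mouse was one of the 3 that stood apart on region markers, with a summed level of midbrain dopamine markers of 71.5 CPM, 5.43 times the median of the 21 mice. The part of those markers in its Kcnk1 level was not tested.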

How the results depend on the processing

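The number of members called for treatment was 3 and stayed within 2 to 4 with limma/voom, DESeq2, RLE scaling, both other filters, no sex term, quality weights and removal of the length and GC trend, although Kcnk9 fails the filter of at least 10 counts in every mouse. It was 1 with the name form as a term or 1 surrogate variable, and 0 with the length slope as a term, in each name form alone and without the 3 mice that stood apart. Leaving out 1 mouse gave 2 to 4 members. The count over all genes, 5144, was 2984 with no sex term, 1999 with the name form, 2110 with 1 surrogate variable, 2674 with the trend removed (1633 higher and 1041 lower, beside 2526 and 2618), 0 with the length slope, in each form alone and without the 3 mice, and 2289 to 6614 with 1 mouse left out. The mice that moved it by over 1.5 times were PBS male 90 (2289), HsTX1[R14A] females 71 (3332) and 98 (3005) and males 81 (3263) and 88 (3121). Of the other Kir and K2P genes, 3 were called, 1 (Kcnk12) with no sex term, the name form, 1 surrogate variable or the trend removed, and 0 with the length slope, in each form alone and without the 3 mice. With 1 mouse left out it was 1 (PBS males 90, 91 and 101, HsTX1[R14A] female 71, males 74 and 88) to 5 (PBS female 104, HsTX1[R14A] male 93). Sex gave 1 member (Kcnk9) with quality weights and 0 elsewhere, and 0 in each case with 1 mouse left out. The interaction gave 0 throughout, also with 1 mouse left out. The number of differing neighbor pairs in the level order was 7 under RLE scaling, with the union of exons as length and in HsTX1[R14A] mice. It was 6 to 7 with 1 mouse left out. These are counts only, and the pairs that passed need not be the same ones, in particular in HsTX1[R14A] mice. The tests behind each count of 0 were edgeR's.

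Fold changes that reversed belonged to genes not called. In log2, Kcnj10 was -0.14 with 1 surrogate variable, -0.12 with the trend removed, -0.31 with the slope, -0.014 with quality weights and -0.064 without the 3 mice. Kcnj16 was 0.012 with 1 surrogate variable, 0.032 with the name form, 0.094 with the trend removed, 0.032 with the slope and 0.10 in the SAMP8 form. Kcnk1 was 0.022 with 1 surrogate variable, 0.064 with the trend removed, 0.055 with the slope, 0.009 with quality weights, 0.017 in the SAMP form and 0.053 without the 3 mice. With the slope Kcnj9 was -0.015 and Kcnk2 0.038, without the 3 mice Kcnk2 was 0.010 and Kcnj3 0.007, and Kcnj3 was 0.10 in the SAMP form. Leaving out 1 mouse gave -0.10 to 0.005 for Kcnj3, -0.11 to 0.044 for Kcnj16 and -0.053 to 0.024 for Kcnk1. The cause of these shifts was not tested. Kcnk9, at 8 counts at the lowest, is the member most limited by depth.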
